A study of Mus musculus with 36 samples.

Results

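Homeostatic astrocyte genes encode the proteins by which astrocytes, the star-shaped glial cells of the brain, support neurons at rest. Here they are the 9 genes Aqp4, Aldh1l1, Slc1a2, Slc1a3, Gja1, Glul, S100b, Sox9 and Aldoc, out of 22447 genes in the deposited table. They were chosen as known astrocyte genes and not by their values, but with earlier results of these data known. All 9 were detected in all 19 libraries and all 9 passed the filter of a mean normalized count of at least 1, as did 20505 genes in all.

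The libraries were made from mouse hypothalamus, the brain region that controls feeding and body weight, in a study of Sim1, a transcription factor whose loss of 1 copy causes obesity. The WT group held 5 animals with an intact Sim1 genotype and no guide RNA, and the SH group held 4 animals labelled Sim1 +/- with no guide RNA. The PTM group held 6 Sim1 +/- animals carrying a guide RNA labelled Promoter, and the ETM group held 4 Sim1 +/- animals carrying one labelled Enhancer, both for CRISPR activation (CRISPRa), in which a Cas9 that does not cut carries an activator to a chosen site. The SH group is therefore the control that shares its genotype with both guide groups. The animals, 13 females and 6 males aged 3 to 9 months, were of mixed B6/FVB background except WT F_2 and SH F_3, both B6 females. The sources do not name the promoter that drives the guides and the activator, or the cells that carry them.

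Astrocytes take up glutamate released at synapses, buffer potassium and water, and share small molecules through gap junctions. The glutamate they take up is turned into glutamine and handed back to neurons. Sox9 is a transcription factor of the glial lineage and stays on in adult astrocytes, and S100b is a calcium-binding protein long used as an astrocyte marker. In the hypothalamus, astrocytes and the related tanycytes also sense nutrients and hormones.

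The depth recovered from the tables ran from 14052691 to 84801602 reads per library. Sim1 itself averaged 422.5 ± 94.6 normalized counts in WT (SD, n = 5) and 211 ± 92.6 in SH (n = 4), with SH F_1 at 329.9 inside the WT range of 305.3 to 547.3. Of 16 hypothalamus markers, 15 were detected in every library, and Kiss1 was at 0 in 2 libraries. The share of normalized counts on Gm42418, a gene that overlaps ribosomal RNA sequence, ran from 0.478% to 9.07%, and was highest in WT F_2. The median Pearson r of a library with the others was lowest in SH F_3 (0.941), PTM M_3 (0.961) and SH F_4 (0.967). These 3, WT F_2 and PTM F_5 had stood apart in an earlier look at these data, and results are also given without these 5 libraries where that moves them. The tissue is bulk, so fewer astrocytes and less RNA per astrocyte cannot be told apart. The labels number the animals but do not say how they were bred or collected, so p-values measure the spread between these animals.

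Promoter windows are shown for S100b, Aldoc and Aldh1l1, the 3 members whose values ran closest together over all 19 libraries (Pearson r from 0.888 to 0.905). In the 17 B6/FVB libraries their r ran from 0.669 to 0.711, and some other pairs were closer. The windows are RefSeq sequences of build GRCm38.p6, on the plus strand, from 250 bases before the annotated start to 50 bases after it. Capitals mark a SOX core (ACAAT or its reverse ATTGT), the motif of the family to which Sox9 belongs, or a nuclear factor I motif (TTGGC or its reverse GCCAA), the motif of a factor family that acts in astrocytes. A GCCAAT run counts as a nuclear factor I motif and as a CCAAT box at once.
S100b, chr10:76253586-76253885: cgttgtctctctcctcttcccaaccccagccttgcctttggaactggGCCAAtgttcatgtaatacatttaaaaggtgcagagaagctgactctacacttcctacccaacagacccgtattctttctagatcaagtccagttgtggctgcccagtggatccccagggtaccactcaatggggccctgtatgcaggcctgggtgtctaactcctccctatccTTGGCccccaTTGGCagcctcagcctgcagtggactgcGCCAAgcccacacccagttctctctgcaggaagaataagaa
Aldoc, chr11:78322823-78323122: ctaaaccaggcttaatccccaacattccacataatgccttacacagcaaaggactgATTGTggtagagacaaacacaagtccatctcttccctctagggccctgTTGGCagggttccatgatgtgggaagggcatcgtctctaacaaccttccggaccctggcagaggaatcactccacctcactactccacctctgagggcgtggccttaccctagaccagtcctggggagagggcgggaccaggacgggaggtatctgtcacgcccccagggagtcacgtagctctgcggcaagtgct
Aldh1l1, chr6:90550543-90550842: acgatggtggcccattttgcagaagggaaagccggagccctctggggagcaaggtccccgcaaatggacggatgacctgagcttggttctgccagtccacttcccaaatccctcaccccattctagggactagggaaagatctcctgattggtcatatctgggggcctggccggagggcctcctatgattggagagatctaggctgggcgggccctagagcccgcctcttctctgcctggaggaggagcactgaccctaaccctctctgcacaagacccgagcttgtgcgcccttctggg

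The S100b window held 4 nuclear factor I motifs and no SOX core. The Aldoc window held 1 of each, and a further Aldoc window in the table held neither. The Aldh1l1 window held neither. Windows of 7 members, 8 in all, were searched. A SOX core was in 2 of these 8 windows, against 31% of all 32851 windows. The nuclear factor I motif was in 4 of 8, against 46.7%, and a CCAAT box in 4 of 8, against 37.4%. These matches are letters in short windows and say nothing of binding.

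Glutamate uptake is carried by Slc1a2 (also called GLT-1) on chr2:102658659-102790784 and Slc1a3 (GLAST) on chr15:8634124-8710764, the main astrocyte glutamate transporters. Slc1a2 averaged 38940 ± 8274 normalized counts in WT, 34330 ± 5928 in SH, 36640 ± 12300 in PTM and 30810 ± 5512 in ETM. Slc1a3 averaged 27820 ± 5979 in WT, 28140 ± 6196 in SH, 25950 ± 4213 in PTM and 24310 ± 4017 in ETM (SD, n = 5, 4, 6 and 4). The order of the group means is WT, PTM, SH, ETM for Slc1a2 and SH, WT, PTM, ETM for Slc1a3, and every pair of neighbouring means lies closer than the SDs of its groups. Slc1a2 had its extremes inside a single group: PTM F_3 was lowest of all 19 libraries at 20056.9 and PTM M_3 highest at 53668.

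Glul, on chr1:153899944-153909723, encodes glutamine synthetase, which makes glutamine from the glutamate taken up. It averaged 24820 ± 4362 normalized counts in WT, 29670 ± 6946 in SH, 27620 ± 5722 in PTM and 26570 ± 3476 in ETM. SH, PTM and ETM all lay above WT in mean, and all 4 ranges overlapped. In SH the libraries read 20754.6, 37646.9, 30907.6 and 29387.4 in F_1, F_3, F_4 and M_1, so the lowest SH value sat near the lowest WT value of 20094.8. A processed pseudogene of Glul, Glns-ps1, averaged 454 normalized counts, and Teddm2, which overlaps Glul on the opposite strand, averaged 18.7.

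Aqp4, on chromosome 18, encodes the water channel of astrocyte endfeet, the processes that wrap blood vessels. In WT it read 4082.6, 8615.4, 3810.6, 6028.7 and 4952.7 normalized counts in F_1, F_2, F_3, F_4 and M_1, and in SH 5199.8, 4729.8, 4832.2 and 5802.6 in F_1, F_3, F_4 and M_1. In ETM it read 4126.6, 4239, 4319.5 and 4173.2 in F_1, F_2, M_1 and M_3, and in PTM it ran from 3007.9 through a median of 4651.7 to 6442.2. All 4 ETM libraries were below all 4 SH libraries, and the ETM values were tightly grouped, with a coefficient of variation of 1.99%, against 9.43% in SH, 24.7% in PTM and 35.4% in WT. WT spanned the ETM and SH ranges, and WT F_2 was the highest library of all.

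Gja1, on chr10:56377330-56402513, encodes connexin 43, the main gap junction protein of astrocytes. It read 11217, 15624.8, 9731.6, 13455.1 and 11047.1 normalized counts in WT and 11247.3, 14821.7, 10692.8 and 12429.3 in SH, in the same order of animals. In ETM it read 10004.5, 10093, 10347.6 and 9234.3, and in PTM it ran from 8665.4 through 10489 to 13210.2. Here too the 4 ETM libraries lay below the 4 SH libraries, while WT F_3 fell within the ETM range.

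S100b, on chr10:76253853-76261159, encodes a calcium-binding protein that astrocytes also secrete. It read 5964.8, 12045, 5762.3, 8259.8 and 6089.9 normalized counts in WT and 6234.7, 18784.9, 7438.4 and 7701.9 in SH. In ETM it read 6124.8, 6577.5, 6769.3 and 4593.1, and in PTM it ran from 5701.3 through 7326.6 to 9528.6. SH F_3 stood far above the other 3 SH libraries, which lay inside the WT range. S100b overlaps Dip2a on the opposite strand, which averaged 2747.4, and the sources do not say whether counting used strand, so some S100b reads may be those of Dip2a.

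Aldoc, on chr11:78322968-78327781, encodes aldolase C, the brain form of a glycolytic enzyme. It read 34917.3, 44083.1, 30069.3, 32733.8 and 36492.6 normalized counts in WT and 38307.6, 84724.7, 35043.1 and 44258.2 in SH. In ETM it read 36252.8, 35304.8, 38898.8 and 26889, and in PTM it ran from 32569.5 through 37775 to 42167.7. The SH mean of 50580 ± 23080 was pulled up by F_3, and the other 3 SH libraries overlapped WT, PTM and ETM.

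Aldh1l1, on chr6:90486427-90600203, encodes a folate enzyme, 10-formyltetrahydrofolate dehydrogenase, and is a widely used general astrocyte marker. It read 2379.1, 2875.3, 1909.6, 2320 and 2301 normalized counts in WT, 1936, 4609.3, 1993.2 and 2341.4 in SH and 2431.5, 2314.9, 2416.3 and 1889.7 in ETM. PTM ran from 2044.3 through 2317.9 to 2976.9. Apart from SH F_3, every library lay between 1889.7 and 2976.9.

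Sox9, on chr11:112782224-112787760, averaged 1165 ± 348.6 normalized counts in WT, 1202 ± 293.5 in SH, 950.8 ± 181.1 in PTM and 959.4 ± 83.32 in ETM. In WT it read 1175.3, 1751, 869, 1088.8 and 943.3, and in SH 1040, 1493.4, 873.5 and 1400.2. In ETM it read 936.6, 872.1, 1072 and 956.9. PTM ran from 786.9 through 906.65 to 1247.1, and both guide groups overlapped the SH range of 873.5 to 1493.4.

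**Figure D1:**
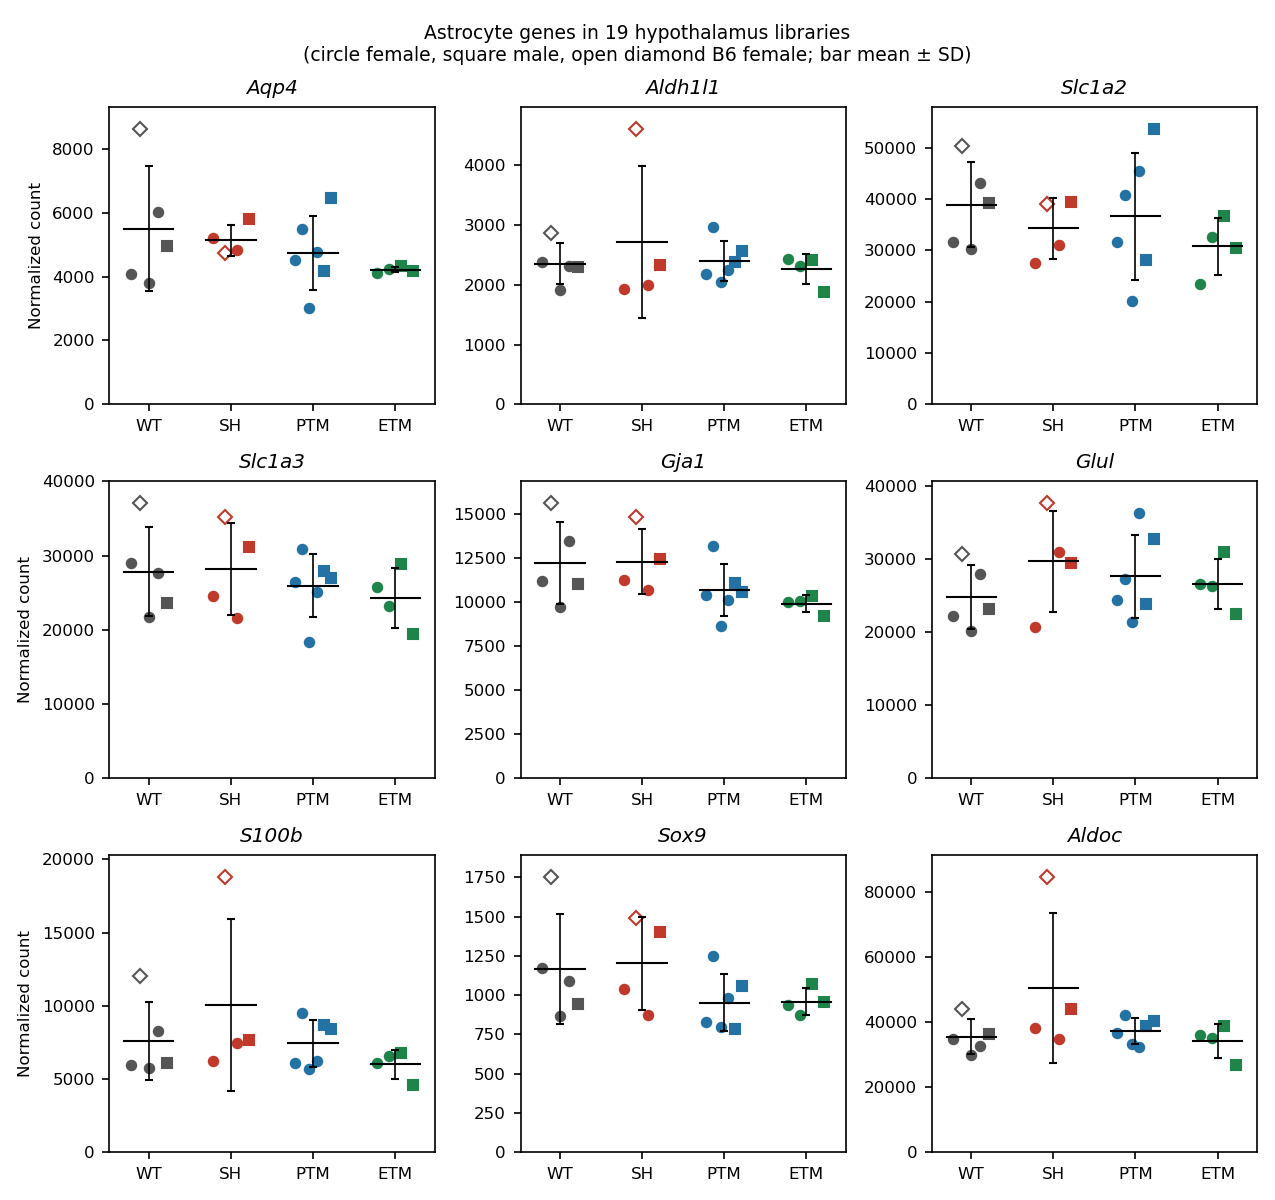
Normalized counts (y axis, linear, from 0) of the 9 genes in the 19 libraries by group (x axis), with circles for females, squares for males and open diamonds for the 2 B6 females; bars show mean ± SD over libraries. SH F_3 stands above the other SH libraries for S100b (18784.9), Aldoc (84724.7) and Aldh1l1 (4609.3), and the ETM libraries lie below the SH libraries for Aqp4 and Gja1.

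The first comparison asks whether losing 1 Sim1 copy is accompanied by a change in these genes. Of the 9, 7 were higher (48.8% of all genes) and 2 lower in SH than in WT, with a median log2 fold change of 0.05 against -0.01 over all genes tested. Aldoc had the highest value, 0.42 on the log2(normalized count + 1) scale (SE 0.21, limma adjusted p = 0.868), then S100b at 0.31 and Glul at 0.24. Slc1a2 was lowest at -0.18, and Aqp4 was at -0.04. No member passed an adjusted p of 0.05, and 0% of the 20505 genes did (768 had an unadjusted p under 0.05, or 3.75%, none of them a member). The member median moved to -0.07 without SH F_3, which turned 5 further members lower, and to 0.20 without SH F_4 and 0.19 without WT F_2. Aldoc was at 0.13, S100b at -0.05 and Glul at 0.11 without SH F_3. In the authors' deposited table Aldoc had a log2 fold change of 0.43 in the SH against WT contrast, with a raw p of 0.00654 and an FDR of 1.00.

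The next comparison asks whether the promoter guide moved these genes relative to SH. In PTM against SH 8 of 9 were lower (49.9% of all genes), with a median log2 fold change of -0.16 against 0.00 over all genes. Aldoc was at -0.35 (SE 0.20, limma adjusted p = 0.934), Sox9 at -0.33 (SE 0.19), S100b at -0.31 (SE 0.26) and Gja1 at -0.20 (SE 0.14). Slc1a2 was the sole member above 0, at 0.02. None of the 9 passed the test, and 0% of all genes did (836 had an unadjusted p under 0.05, or 4.08%, none of them a member). The median was 0.01 without SH F_3, and then 5 of 9 were higher, with Aldoc at -0.07 and S100b at 0.04. It was -0.04 without PTM F_3 and -0.07 with the Gm42418 share as a covariate. The authors' promoter guide contrast is labelled Promoter Y against N. Which animals N holds is not stated, so it need not match PTM against SH. In the authors' deposited table Sox9 had a log2 fold change of -0.32 in the promoter guide contrast, with a raw p of 0.0504 and an FDR of 1.00.

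In ETM against SH, the matching question for the enhancer guide, all 9 were lower (49.7% of all genes), with a median log2 fold change of -0.29 against 0.00 over all genes tested. S100b was at -0.59 (SE 0.29), Aldoc at -0.48 (SE 0.22), Aqp4 at -0.31 (SE 0.22), Sox9 at -0.30 (SE 0.21) and Gja1 at -0.29 (SE 0.15). Slc1a2 and Slc1a3 were both at -0.21, Aldh1l1 at -0.16 and Glul at -0.14. Aldoc was the sole member with an unadjusted limma p under 0.05 (adjusted p = 0.678), against 6.67% of all genes. No member passed the adjusted test, and 0% of all genes did. In 2 of 9 members, Aqp4 and Gja1, every ETM library was below every SH library, as in 2.18% of all genes in that direction. Among 9026 genes whose mean normalized count was 500 or more, as it was for each member, 39.4% were lower in ETM than in SH.

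The ETM against SH values held their sign in most settings but not all. Without SH F_3 the median was -0.19 with 8 of 9 lower, S100b was at -0.26 and Aldoc at -0.21, and Aldh1l1 turned to 0.11. The median was -0.16 with the Gm42418 share as a covariate and -0.45 with the replicate number as a block. Without the 5 libraries that stood apart the median was -0.22 with 7 of 9 lower. In the authors' deposited table the enhancer guide contrast gave Aqp4 a log2 fold change of -0.76 (raw p 0.0126, FDR 0.768) and S100b -0.69 (raw p 0.0185, FDR 0.798), with Slc1a2 at -0.62, Sox9 at -0.58 and Gja1 at -0.41. That contrast is labelled Enhancer Y against N, and which animals N holds is not stated, so it need not match ETM against SH. No member had an FDR under 0.05 in any contrast of the authors' deposited table.

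No difference between the 2 guide groups passed the test in these genes. ETM against PTM had a median log2 fold change of -0.10, with 8 of 9 lower (48.8% of all genes), no member past the adjusted test (0% of all genes) and none with an unadjusted p under 0.05 (2.44% of all genes). PTM against WT had a median of -0.10 and ETM against WT of -0.25, again with no member past the adjusted test, as for 0% of all genes in each, and none with an unadjusted p under 0.05 (2.11% and 1.26% of all genes). The ETM against WT median was -0.10 without WT F_2 and -0.33 without WT F_3. Without WT F_3, 2 members had an unadjusted limma p under 0.05, against 262 of all 20511 genes. The PTM against WT median was 0.01 without WT F_2, and the ETM against PTM median was -0.02 without ETM M_3. Gja1 came nearest in ETM against WT, at -0.28 (SE 0.14, limma adjusted p = 1.00). These comparisons share their SH or WT animals with those above, so they are not independent.

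**Figure D2:**
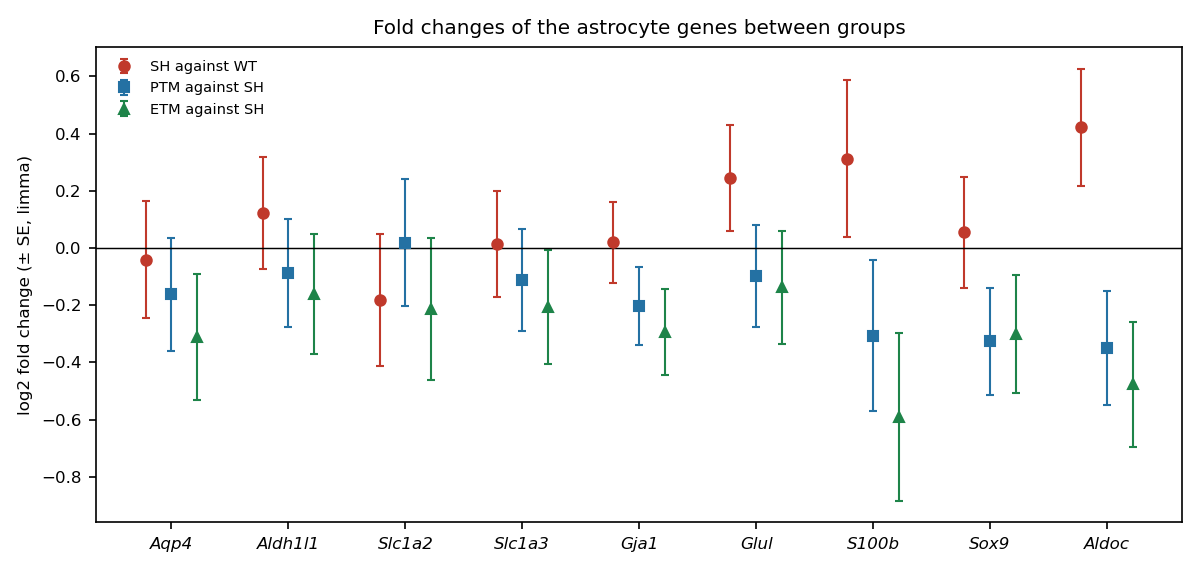
Log2 fold change with its SE (y axis) of each gene (x axis) in SH against WT, PTM against SH and ETM against SH, from limma over 19 libraries; the SH animals are shared by all 3. All 9 ETM against SH values lie below 0, from -0.14 for Glul to -0.59 for S100b, and none of the values passed an adjusted p of 0.05.

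Sex and age left these genes without a call. Between males and females the median log2 fold change was 0.00, with Slc1a2 farthest from 0 at 0.22 (SE 0.17) and no member called, against 0.039% of all genes. Per month of age the median was 0.01, with 7 of 9 above 0 (51.2% of all genes), Slc1a3 highest at 0.04 (SE 0.03, limma adjusted p = 0.489) and Glul lowest at -0.03. Without PTM F_2 the age median was -0.0061 with 3 of 9 above 0, and without SH F_3 it was 0.03. No member was called for age, against 2.81% of all genes (577 genes, or 19 without PTM M_3).

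The 9 genes varied from animal to animal within each group. The mean log2 deviation of the 9 genes from their own means ran from -0.42 in PTM F_3 and -0.33 in ETM M_3 to 0.51 in WT F_2 and 0.61 in SH F_3. By group it averaged 0.04 ± 0.30 in WT, 0.15 ± 0.34 in SH, -0.03 ± 0.24 in PTM and -0.15 ± 0.14 in ETM (SD, n = 5, 4, 6 and 4). All 9 genes were above their median over libraries in WT F_2, SH M_1 and PTM F_2, and all 9 below it in WT F_3, PTM F_3 and ETM M_3. WT and PTM each held both kinds of library.

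**Figure D3:**
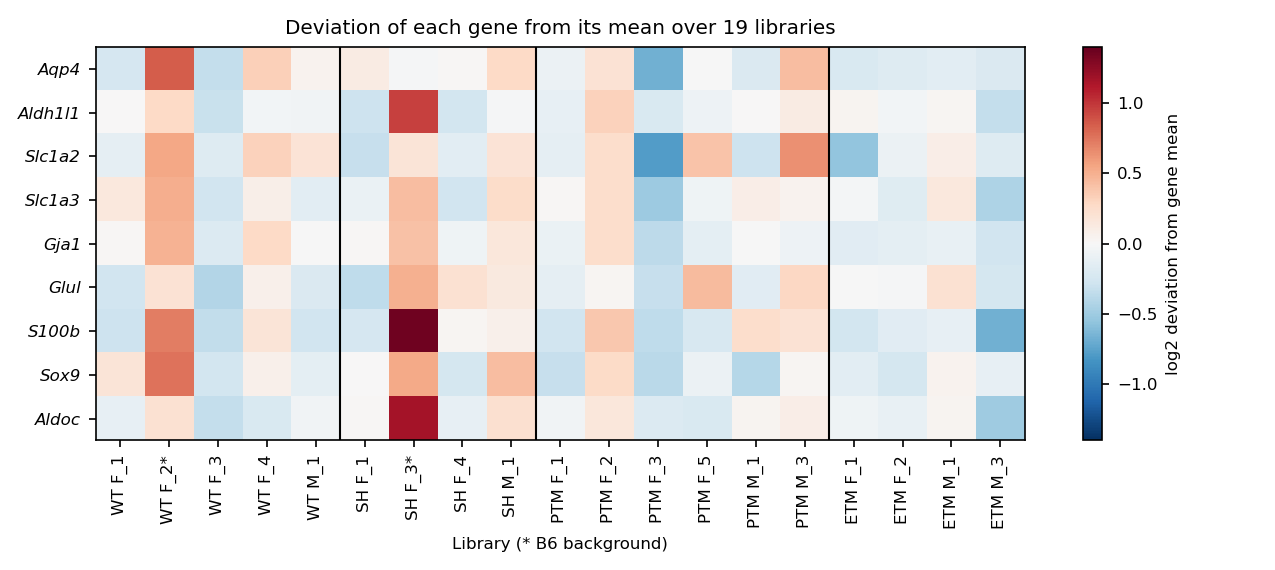
Log2 deviation (colour) of each gene (rows) from its mean over the 19 libraries (columns, by group, with * for the B6 background). WT F_2 and SH F_3 hold the highest mean deviations, 0.51 and 0.61, and PTM F_3 the lowest, -0.42.

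Over the 19 libraries, all 36 pairs of members had a positive Pearson r of log2 values, with a median of 0.659 and a range from 0.308 to 0.905. Each member's median r with the other 13698 genes of at least 50 mean normalized counts lay between -0.0738 and -0.003. Aldh1l1 with Aldoc (0.905), Aldh1l1 with S100b (0.896) and S100b with Aldoc (0.888) were the closest, and Slc1a2 with Aldoc the least close (0.308). In the 17 B6/FVB libraries all 36 pairs were still positive, with a median of 0.548. The order changed there: Aldh1l1 with Aldoc was at 0.669, Aldh1l1 with S100b at 0.7 and S100b with Aldoc at 0.711. Aqp4 with Slc1a2 was the closest pair in those libraries, at 0.813. The points share libraries and tissue pieces, so these are descriptions of these animals.

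The genes most like each member over the 19 libraries, by Pearson r, were all genes other than the members. Aldh1l1 ran closest to Acsbg1 (0.945), Ndrg2 and Aldh7a1, and Aldoc to Ndrg2 (0.938), Slc25a18 and Slc25a34. S100b ran close to Plekhb1 (0.972) and Selenop, and Slc1a3 to Nadk2 (0.958), Kcnj16 and Arhgef26. Gja1 was closest to Arhgef26 (0.934), Emp2 and Magt1, Slc1a2 to Spire1 (0.923), Gpm6b and Mcur1, and Sox9 to Cpt1a (0.892), Dab2 and Slc7a2. Aqp4 was closest to Fmnl2 (0.885), Prkd3 and Qk, and Glul to Wsb2 (0.858), Pccb and Hebp1. In the 17 B6/FVB libraries Aldoc with Ndrg2 was at 0.804, and Ndrg2 was no longer the gene closest to Aldoc. Aldh1l1 with Acsbg1 was at 0.851 there and S100b with Plekhb1 at 0.908. Slc1a3 with Nadk2 was at 0.948, and Slc1a2 with Mcur1 went from 0.914 to 0.929.

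After the values had been seen, the labelled background strain was added to the model, since both B6 animals had the highest deviations of these same 9 genes. The values below therefore describe that observation again, and their tests are no independent support for it. All 9 members were higher in the B6 libraries (52.9% of all genes), with a median log2 fold change of 0.54 against 0.04 over all genes. S100b was at 1.17 (SE 0.20), Aldoc at 0.77 (SE 0.17), Aldh1l1 at 0.76 (SE 0.17) and Sox9 at 0.66 (SE 0.18), and these 4 had a limma adjusted p under 0.05, against 6.31% of all genes. Slc1a3 was at 0.54, Glul and Slc1a2 at 0.47, and Aqp4 and Gja1 at 0.43, none of which passed. In all, 7 of the 9 had an unadjusted p under 0.05, against 24.5% of all genes. Among 9026 genes whose mean normalized count was 500 or more, as it was for each member, 38.6% had such a p and 61.3% were lower in the B6 libraries.

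The 2 B6 animals did not share a single profile. SH F_3 led for S100b, Aldoc, Aldh1l1 and Glul, while WT F_2 led for Aqp4, Slc1a3, Gja1 and Sox9, and Aqp4 in SH F_3 ranked 10 of 19. Without SH F_3 the median log2 fold change of the members for strain was 0.56. Without WT F_2 the member median was 0.50, Aldoc was at 1.15, S100b at 1.43 and Aqp4 at -0.10. Each of these fits has 1 B6 library, which is assumed to vary like the others, so only effect sizes are given here. With females only, which keeps both B6 animals, 0 genes were called. In that fit 7 members had an unadjusted limma p under 0.05, against 4887 of all 20548 genes. On the authors' stabilized log2 values, 0 genes had an unadjusted p under 0.05 for strain, and likewise 0 for sex and 0 for age. The sources do not state how those columns were made, so these zeros are no check on strain or age. The strain, these 2 animals and their libraries cannot be told apart. Among the 17 B6/FVB libraries S100b ran no higher than 9528.6 and Aldoc no higher than 44258.2.

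**Figure D4:**
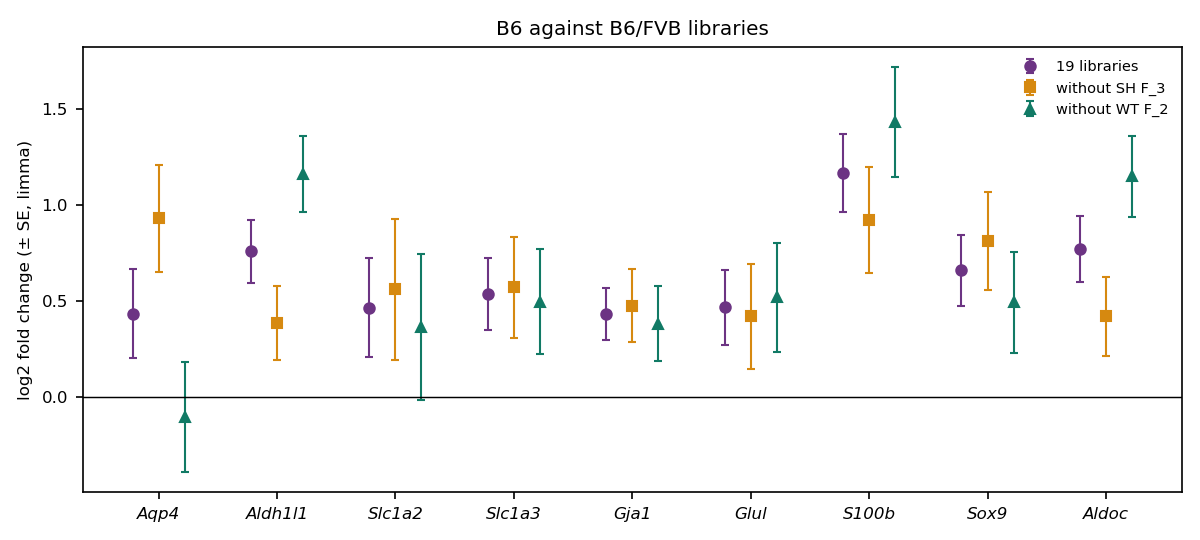
Log2 fold change with its SE (y axis) of B6 against B6/FVB libraries for each gene (x axis), over 19 libraries, without SH F_3 and without WT F_2. Over 19 libraries the values run from 0.43 to 1.17, and Aqp4 turns to -0.10 without WT F_2.

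Other cell types moved with the 2 B6 libraries. Neuronal markers were lower there in 13 of 14 genes (4 called, among them Gad2 at -0.79 and Syt1 at -0.94), and their summed level was 191000 in SH F_3 and 230300 in WT F_2, against 238400 to 325400 in the B6/FVB libraries. Blood markers were higher in 7 of 7 (5 called, Hbb-bs at 1.86), with sums of 24380 and 17550 against 5181 to 18040. Tanycyte and ependymal markers were higher in 11 of 12, with sums of 69410 in SH F_3 and 48130 in WT F_2 against 20630 to 47230. Microglial markers were higher in 11 of 11, meningeal and mural markers in 12 of 12 and endothelial markers in 9 of 10, none of them called. Choroid plexus markers were lower in 11 of 12, with 1 called. They summed to 7347 in SH F_3 and 10430 in WT F_2, against a wide 9146 to 113600 in the B6/FVB libraries. Oligodendrocyte markers were higher in 9 of 12 and oligodendrocyte precursor markers lower in 5 of 7, with 0 called in either. These counts stand against 52.9% of all genes higher and 6.31% called. No marker of these lists was at 0 in all libraries. The part of these differences in the astrocyte values was not tested.

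Of 29 other astrocyte identity genes, all 29 were higher in the B6 libraries (52.9% of all genes) and 14 were called for strain (6.31% of all genes), among them Gfap at 1.00, an intermediate filament gene, Slc25a18 at 0.86, a mitochondrial glutamate carrier, and Acsbg1 at 0.75. In the S100 list, which also holds Ager, 9 of 9 measured were higher and 4 called, S100a1, S100a10, S100a13 and S100a16. Among the gliogenic transcription factors, 16 of 21 were higher and 2 called, Hes5, a Notch target, at 1.00 and Id3, a target of bone morphogenetic proteins, at 0.76. In a list of glutamate and glutamine cycle genes other than the members, 10 of 14 measured were lower and 4 called, Got1, Got2, Slc1a1 and Slc38a1. In the water, potassium and gap junction list 12 of 18 were higher and 4 called, among them Mlc1, Gjb6 and Hepacam. In the folate and glycolysis list 18 of 25 were lower and 1 was called, Eno2, the neuronal enolase, at -0.52.

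No list had a gene past the adjusted test in SH against WT, PTM against SH or ETM against SH, whatever its unadjusted count. In ETM against SH, 26 of the 29 other astrocyte identity genes were lower, with 5 at an unadjusted p under 0.05 (6.67% of all genes), led by Gfap at -1.32 (SE 0.28, limma adjusted p = 0.379). In the S100 list 8 of 9 were lower, with 6 at that p, led by S100a6 at -1.31. Reactive astrocyte genes, a list known for injured tissue that also holds Gfap, were lower in 15 of 18, with 10 at that p in either direction and a median log2 fold change of -0.84, against -0.29 for the 9 homeostatic genes. In SH against WT the reactive list was higher in 15 of 18, with 10 at that p in either direction (3.75% of all genes) and a median of 0.79, against 0.05 for the 9. The glutamate cycle list was higher in 9 of 14 and the neuronal list in 14 of 14 in ETM against SH, with none at that p in either. Microglial markers were lower in 11 of 11, with 8 at that p, and summed to 12720 to 14020 in ETM against 14910 to 17490 in SH. Tanycyte and ependymal markers were lower in 11 of 12, with 2 at that p, and summed to 21030 to 39970 against 34770 to 69410. Blood markers were lower in 6 of 7 with 3 at that p, and oligodendrocyte precursor markers higher in 6 of 7 with 4 at that p. The part of these in the ETM against SH astrocyte values was not tested.

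Cas9 binding was looked up near the members in the authors' 6 deposited peak lists. These came from ChIP-seq, which recovers DNA bound by a protein, with antibodies to S. pyogenes or S. aureus Cas9 in hypothalamus or Neuro2A, a mouse neuroblastoma line. On the coordinates as given, none of the lists, which held 92 to 205 peaks, had a peak within 1 Mb of any of the 9 genes. The nearest lay 2.67 Mb from Slc1a2, and for Gja1 and S100b the nearest were 3.52 and 3.65 Mb away. The submitters' notes name the build mm9, and the build of the peak coordinates was not checked. The absence of near peaks and these distances may therefore rest on mixed builds.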

How the data were processed

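Hypothalamus RNA from 19 mice was sequenced in 4 groups, and the groups were taken from the labels. The normalized count is a signal the authors deposited per gene and library, named as normalized in the file headers. It was taken to be a read count divided by a size factor, because the values lay near whole multiples of a step in each library. Their stabilized values are on a log2 scale, and their log2 fold changes, p-values and FDR values were read as given in the deposited table. The table also holds the GC percent of each gene, deposited by the authors and not used here. The peak lists hold the authors' fold enrichment (a ratio), −log10 p-value and −log10 q-value, per the file headers. The submitters' processing notes name CASAVA 1.8, STAR 2.5.2b, MACS2 2.1.1.20160309, DESeq2 1.16.1 and the build mm9. Gene coordinates in the table overlapped those of RefSeq GRCm38 for 99.94% of 16619 genes matched by Entrez ID, so gene coordinates are given in GRCm38. The peak lists were not checked in this way.

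Whole reads were recovered from the normalized counts, with at least 99.8% of genes within 0.0505 of a whole multiple in each library (0.36126 normalized counts per read in WT F_4, where the step is close to the rounding). They served only for edgeR 4.0.16 and DESeq2 1.42.0 as alternatives. The main test was limma 3.58.1 (R 4.3.3) with a trend on log2(normalized count + 1), genes with a mean of at least 1 (20505 of 22447), group and sex as terms, all libraries, and Benjamini-Hochberg adjustment over all genes at 0.05. The scripts were tested on simulated data.

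The members and all gene lists were chosen with earlier results of these data known. Named genes are the members, the called genes or up to 3 genes with the smallest p of each list, and the 3 genes most like each member. Some genes that this rule names are not reported here. Alternatives covered the pseudocount, the filter, scaling, age, a replicate block, left-out libraries and other tools. The strain term, the Gm42418 share as a covariate, the set without 5 libraries and the stabilized values were added after the data had been seen. Errors are the spread between animals, and counting intervals are not given.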

Additional observations from a re-analysis of the deposited data

Results flagged for a closer look

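Of 36 groups of values tested (9 genes in 4 groups) 2 had a library far from the others by Dixon's gap over range, where chance flags about 1 group in 20. Both were in SH, and both were SH F_3, the B6 female. Aldh1l1 read 4609.3 normalized counts there, with a gap of 0.848 of the range to the nearest SH library. S100b read 18784.9, with a gap of 0.883 of the range. SH F_3 also had the lowest summed neuronal markers, 191000 normalized counts, and a Gm42418 share of 2.91%, and the part of these in the values was not tested.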

How the results depend on the processing

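No member passed an adjusted p of 0.05 in any of the 6 group comparisons, in males against females or per month of age, under any alternative run. Over all alternatives the member median ran across 0 in SH against WT (-0.067 to 0.20), PTM against SH (-0.25 to 0.0085), PTM against WT (-0.20 to 0.016), males against females (-0.034 to 0.090) and per month of age (-0.0061 to 0.039), and for strain it was -0.047 on the authors' stabilized values. It stayed below 0 in ETM against SH (-0.45 to -0.16), ETM against WT (-0.33 to -0.088) and ETM against PTM (-0.16 to -0.015). The stabilized values gave 0 genes with an unadjusted p under 0.05 for sex, age and strain alike, so they are no check on these. Of 27 single gene results, 14 kept their direction throughout. Over all genes, calls in SH against WT numbered 1 with age as a covariate, 4 with the replicate block, 7 by DESeq2 and 6 on the stabilized values, and 0 to 1 with single libraries left out. PTM against SH had 3 by DESeq2, and edgeR on the recovered reads called 0 genes in each of the 6 group comparisons. ETM against SH had 3 with age, 4 with the block, 13 by DESeq2 and 1 with the Gm42418 share, and 0 to 3 with single libraries left out. PTM against WT had 1 on the stabilized values. Per month of age, all-gene calls numbered 1098 without both B6 animals, 3 in females only, 35 without the 5 libraries that stood apart and 0 on the stabilized values, and 19 to 1067 with single libraries left out. For strain, 0 members were called in females only and on the stabilized values, and 0 to 3 with a single B6 library left out. All-gene calls for strain numbered 1945 with age, 0 in females only and 0 on the stabilized values, and 0 to 2540 with a B6 library left out. The cause was not tested. Each strain fit with a B6 library left out rests on 1 B6 library, so its counts of calls are no check on strain.

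In SH against WT, these log2 fold changes turned sign. Sox9 was -0.094 in females only, and -0.067 to 0.21 with single libraries left out. Slc1a3 was -0.097 in females only, -0.0069 with TMM scaling and -0.0093 by edgeR, and -0.11 to 0.13 with single libraries left out. Aqp4 was 0.069 with the block, 0.17 without both B6 animals and 0.23 without the 5 libraries, and -0.15 to 0.14 with single libraries left out. Aldh1l1 was -0.095 without the B6 animals and -0.063 without the 5, and -0.17 to 0.26 with single libraries left out. S100b was -0.046 to 0.50 with single libraries left out. Gja1 was -0.022 in females only, -0.0013 with TMM scaling and -0.012 by edgeR, and -0.076 to 0.11 with single libraries left out.

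In PTM against SH, Slc1a2 was -0.24 with the block and -0.12 without the 5 libraries, and -0.083 to 0.17 with single libraries left out. Without the B6 animals Slc1a3 was 0.0085, Glul 0.029, Aldh1l1 0.19 and S100b 0.040. Without the 5 libraries Aldh1l1 was 0.16 and S100b 0.089, and on the stabilized values Aldh1l1 was 0.0083. With single libraries left out Slc1a3 was -0.23 to 0.0085, Glul -0.26 to 0.029, Aldh1l1 -0.22 to 0.19 and S100b -0.49 to 0.040. In ETM against SH, Glul was 0.096 without the 5 libraries. Aldh1l1 was 0.10 without the B6 animals and 0.081 without the 5, and -0.29 to 0.11 with single libraries left out.

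The labels do not say whether replicate numbers pair the samples. The median correlation of deviations was 0.34 for same-number pairs and -0.058 for pairs of other numbers. Of 20 same-number pairs 15 were over 0.1, with a range from -0.27 to 0.58, and 12 of 18 libraries correlated best with their own number. This is a hint from the data and not the design, and the main fit did not use it. With the replicate block, 5 of 9 members had an unadjusted limma p under 0.05 in ETM against SH (0 adjusted), against 1157 of all 20505 genes. Their median was -0.45. In ETM against WT 3 of 9 members had such a p, against 620 of all 20505 genes. The block was not run for sex, age or strain, nor females only for sex, nor edgeR and DESeq2 for age and strain.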
